A study of Homo sapiens with 2 samples.

Results

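Kinesins are motor proteins that use ATP to walk along microtubules or to shorten microtubule ends. The genes with KIF names fall into those that build the mitotic spindle, move chromosomes and complete cytokinesis, and those that carry vesicles, organelles and RNA or act at the cilium. Many of the division kinesins are transcribed mainly in G2 and M phase of the cell cycle, whereas the cargo kinesins are used in all phases. The members were the genes of the deposited table whose name is KIF or KIFC followed by a number and, where present, a letter A to C, and this name rule found 42 genes among 60624 genes with a name. All 42 were annotated as protein-coding in GENCODE 29.

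The data were RNA sequencing libraries of MDA-MB-231, an established human cell line of triple-negative breast cancer, 1 library per group. The CEL culture received 1 µM of an agent that the labels call CEL for 24 h, and the label of the Control culture gives 24 h of incubation and names no agent. The series concerns exosomes of M1 macrophages combined with CEL in this cancer, and both libraries are labelled as the cancer line alone. The labels name no clone, passage or vehicle. The CEL library held 17199398 reads in genes and the Control library 14821148. The receptor genes ESR1 and PGR were listed at 0 in both libraries, and the mesenchymal gene VIM stood at 350 FPKM in CEL and 399 FPKM in Control. ERBB2 was not low, at 48.8 FPKM in CEL and 71.7 FPKM in Control, and EPCAM was at 8.97 FPKM in CEL and 17.2 FPKM in Control. Of 8 macrophage and leukocyte markers, CSF1R and CD14 passed 1 FPKM, at up to 2.78 FPKM, while LYZ and AIF1 were at 0, and the list summed to 3.75 FPKM in CEL and 4.87 FPKM in Control.

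FPKM are reads scaled by the deposited gene length and by the reads of the library. Levels of different kinesins set side by side therefore depend on these lengths, which were not checked against transcripts. The ratio of CEL FPKM to Control FPKM of a single gene does not depend on them. Genes at 1 FPKM or above in either library were compared and are called tested here, with no statistical test meant. A gene was called lower or higher where (CEL FPKM + 1)/(Control FPKM + 1) differed from 1 by at least 1.5-fold, which is 0.58 on the log2 scale. The pseudocount of 1 FPKM understates the difference of low genes. There are no replicates, so p-values were not computed, and each comparison is between these libraries and not between the conditions. For single genes the ratio of CEL FPKM to Control FPKM is given without pseudocount, with a 95% interval that covers counting error only.

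Most of the expressed kinesins were slightly lower in the CEL library, and KIF20A was lower by much more than the rest. Of the 42 members, 29 reached 1 FPKM in at least 1 library, and 25 of these 29 were lower in CEL by some amount, against 49.8% of all 13745 genes tested. By the 1.5-fold rule 3 of 29 were lower, namely KIF20A, KIF22 and KIF7, a share of 10.3% beside 10.2% for all genes tested, so this share was close to the background. No member was called higher, beside 8.97% of all genes, and none was at least 2-fold higher, beside 2.70%. The median log2 fold was −0.30 in the members and 0.00 in all genes. With the trend of the ratio with gene length removed, 5 members were lower and 1, KIF21A, was higher, with a log2 fold of 0.59 that lies at the threshold, beside 13.4% lower and 5.69% higher of all genes in that setting.

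The counting interval of the ratio lay below 1 for 22 of the 29 members, beside 29.1% of all genes, and above 1 for 2 members, beside 29.9%. Since the interval narrows with reads, well-expressed genes pass it more readily. Of 8170 protein-coding genes that reached 10 FPKM the interval lay below 1 for 32.4%, while 45.2% were lower by some amount and 6.38% by at least 1.5-fold. Together the 42 genes made up 0.277% of the CEL reads and 0.358% of the Control reads.

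**Figure D1:**
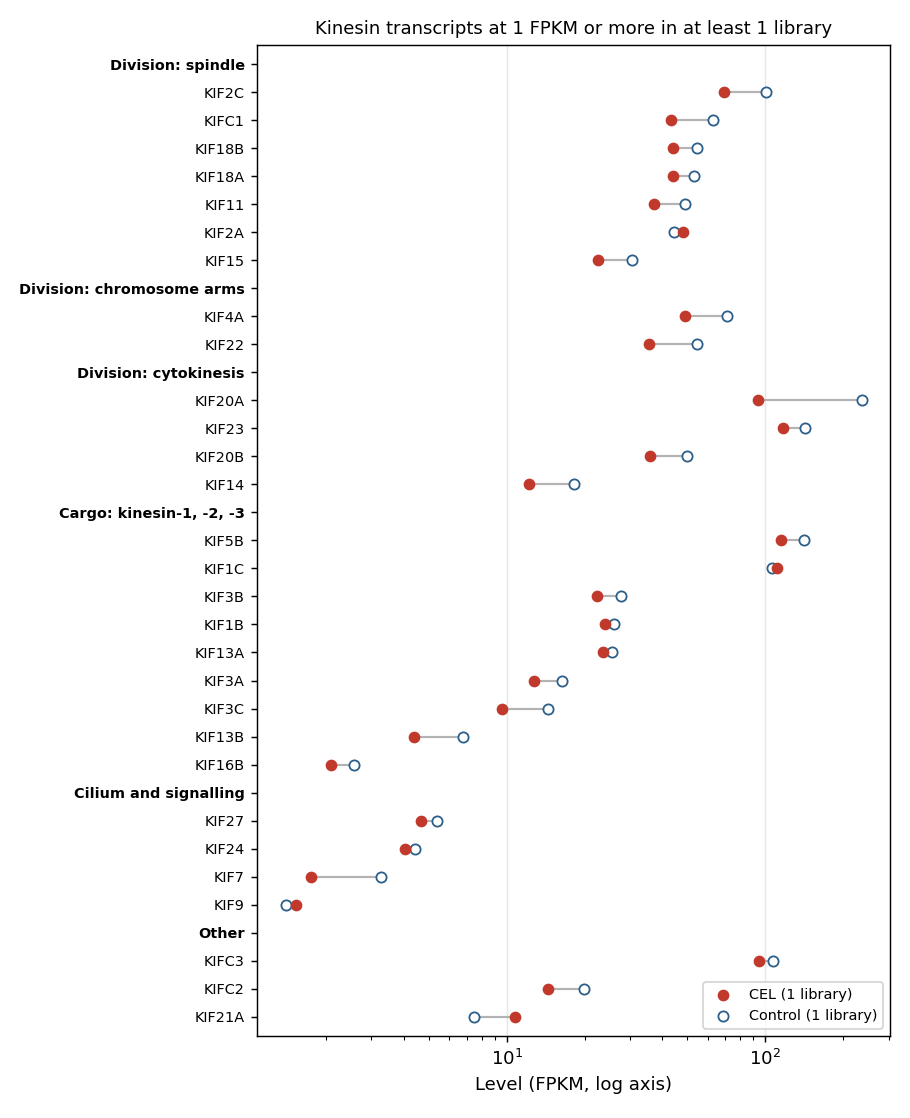
Level of each of the 29 kinesins in FPKM on a log axis, with the CEL library as filled and the Control library as open points, grouped by role and ordered by the Control level. The filled point lies left of the open one for 25 genes, and the gap is widest for KIF20A, at 93.3 FPKM in CEL and 236 FPKM in Control.

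In cytokinesis, the last step of cell division, all 4 kinesins were lower. KIF20A carries the chromosomal passenger complex with Aurora B from the chromosomes to the spindle midzone. KIF20A (ENSG00000112984; GRCh38 chromosome 5, 138178719 to 138187723) stood at 93.3 FPKM (2186 reads) in CEL and 236 FPKM (4762 reads) in Control. Its CEL level was 0.396 of the Control level (counting interval 0.376 to 0.416), 2.53-fold lower, and its log2 fold of −1.33 was 179th from the lowest of all 13745 genes tested. Among the 29 tested kinesins it was the only one past 2-fold, beside 3.24% of all genes at least 2-fold lower. KIF20A had the highest level of all kinesins in Control and the fifth highest in CEL, where KIF23, KIF5B, KIF1C and KIFC3 stood above it.

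KIF20B, its closest relative in the family, acts in abscission and was at 35.9 FPKM in CEL and 49.6 FPKM in Control, a ratio of 0.724 (0.688 to 0.761). KIF23, which with RACGAP1 forms the centralspindlin complex that bundles midzone microtubules, was at 117 FPKM in CEL and 143 FPKM in Control, a ratio of 0.816 (0.783 to 0.850). The intervals of KIF20A, KIF20B and KIF23 did not overlap each other. The level of KIF20A was 2.60 times that of KIF20B in CEL and 4.76 times in Control. These factors rest on deposited lengths of 1361 bases for KIF20A and 4571 bases for KIF20B. In Control reads the genes were closer, at 4762 for KIF20A and 3359 for KIF20B. KIF14, which brings citron kinase to the midbody, was at 12.2 FPKM in CEL and 18.2 FPKM in Control, a ratio of 0.668 (0.623 to 0.715). Summed over these 4 genes, the level was 258 FPKM in CEL and 447 FPKM in Control.

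The kinesins of chromosome arms push chromosomes towards the spindle equator and organise chromatin. KIF22 (ENSG00000079616; chromosome 16, 29790719 to 29805384) was at 35.5 FPKM in CEL and 54.3 FPKM in Control, a ratio of 0.653 (0.599 to 0.712). Its log2 fold of −0.60 is the last one past the threshold among the tested members, and that of KIF14, at −0.55, is the first one inside it. KIF4A, which also stops microtubule growth in the midzone, was at 48.8 FPKM in CEL and 71.2 FPKM in Control, a ratio of 0.686 (0.648 to 0.727). KIF4B, an intronless near copy of KIF4A, had 1 read in each library, so its reads cannot be told apart from stray reads of KIF4A.

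Of the spindle kinesins 6 of the 7 tested members were lower. KIF2C removes tubulin from microtubule ends at kinetochores and was at 69.4 FPKM in CEL and 100.5 FPKM in Control, a ratio of 0.691 (0.646 to 0.738). KIFC1, a minus-end motor that bundles spindle poles and clusters extra centrosomes, was at 43.3 FPKM in CEL and 62.7 FPKM in Control, a ratio of 0.690 (0.629 to 0.757). Both were lower by close to the same factor as KIF4A. KIF11, the motor that pushes the spindle poles apart, was at 37.0 FPKM in CEL and 48.9 FPKM in Control, a ratio of 0.756 (0.721 to 0.793). KIF15, which can take over from KIF11, was at 22.5 FPKM in CEL and 30.5 FPKM in Control, a ratio of 0.740 (0.682 to 0.803). The intervals of KIF11 and its backup overlapped.

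KIF18A dampens the movements of chromosomes at the equator and KIF18B shortens astral microtubules. KIF18A was at 43.8 FPKM in CEL and 53.1 FPKM in Control, with a ratio of 0.825 (0.763 to 0.893). KIF18B was at 44.1 FPKM in CEL and 54.7 FPKM in Control, with a ratio of 0.806 (0.760 to 0.855). These relatives had almost the same level in each library and overlapping intervals. KIF2A, which shortens microtubules at spindle poles and also works in cells that do not divide, was the 1 division kinesin with a higher value, at 48.1 FPKM in CEL and 44.2 FPKM in Control, a ratio of 1.09 (1.01 to 1.18). KIF2B, another relative of KIF2A, had 0 reads in both libraries, which allows up to 0.0769 FPKM in CEL and 0.0893 FPKM in Control. KIF2A was at 0.694 of the level of KIF2C in CEL and at 0.440 of it in Control.

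Of the 13 tested division kinesins, 12 were lower in CEL with an interval below 1, and their median log2 fold was −0.46. The interval lay below 1 for 29.1% of all genes tested and 32.4% of protein-coding genes that reached 10 FPKM. The called members were KIF20A and KIF22, 2 of 13 (15.4%), beside 10.2% of all genes. Without KIF20A, which was left out after its value was seen, the summed level of the division kinesins was 557 FPKM in CEL and 731 FPKM in Control, and their median log2 fold was −0.44. Of 4 listed markers of dividing cells, 3 were lower too and 1, PCNA, was higher. MKI67 stood at 100.3 FPKM in CEL and 156 FPKM in Control, TOP2A at 481 FPKM in CEL and 763 FPKM in Control, and CCNB1 at 245 FPKM in CEL and 424 FPKM in Control. PCNA, which serves DNA replication, was at 254 FPKM in CEL and 173 FPKM in Control, a ratio of 1.47 (1.41 to 1.53). In bulk RNA, fewer cells in mitosis and less RNA per cell cannot be told apart, and the part of either in these ratios was not tested.

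**Figure D2:**
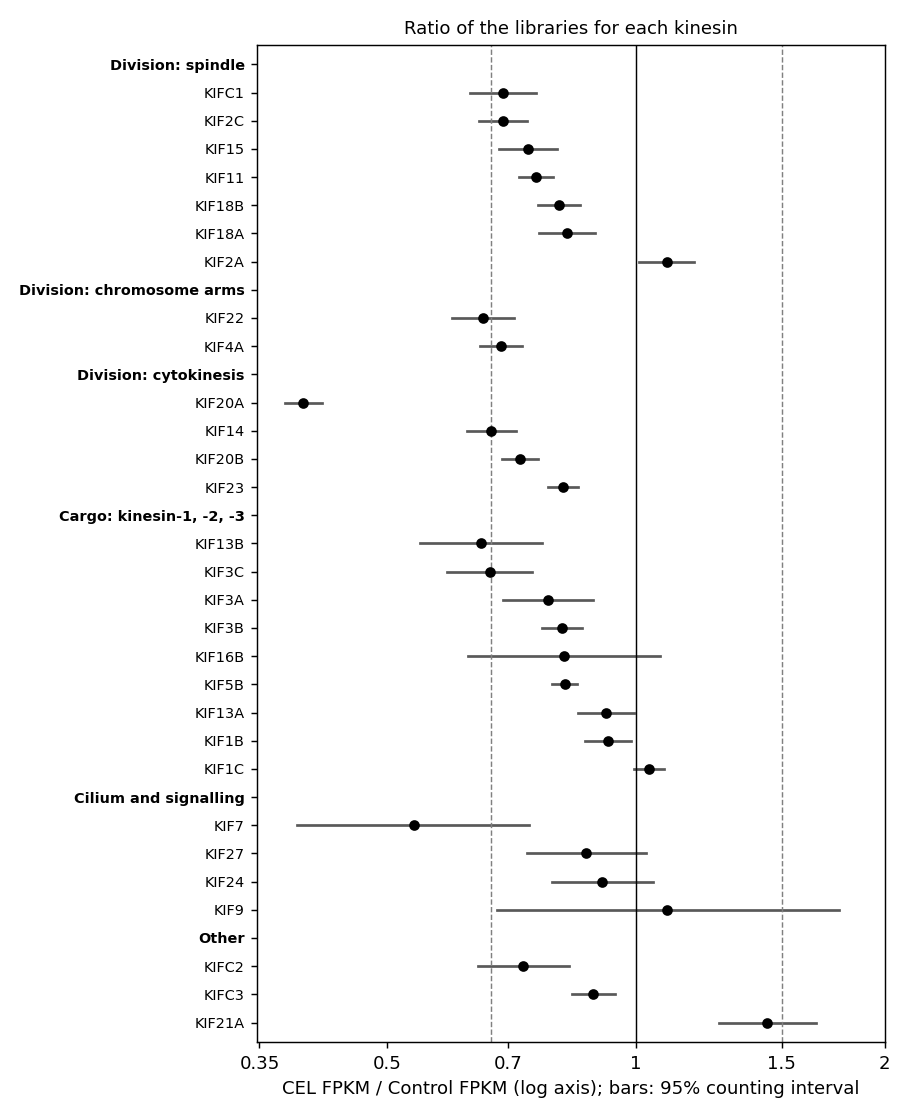
Ratio of CEL FPKM to Control FPKM for the 29 kinesins on a log axis, with 95% counting intervals as bars, a solid line at 1 and dashed lines at 1.5-fold in each direction. KIF20A stands alone at 0.396, the other division kinesins except KIF2A lie between 0.653 and 0.825, and KIF21A is farthest to the right at 1.44.

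Promoters of genes transcribed in G2 and M phase often carry a CHR element, bound by the MuvB core of the DREAM and MYB-MuvB complexes, next to boxes bound by NF-Y. The promoter windows in RefSeq (GRCh38.p14; 250 bases before the transcription start and 50 from it) were searched on both strands for the CHR letters TTTGAA, the related letters TTTAAA, which also resemble a TATA box, the NF-Y box CCAAT and the E2F-like letters TTTNGCGC. TTTGAA and TTTAAA cannot match at the same place. Of the 42 members 34 matched by symbol, and the first window listed for a gene was taken. KIF13B, KIF19, KIF21B, KIF26B, KIF27, KIF5A, KIFC2 and KIFC3 had no entry. Not every window lies at the deposited gene start. That of KIF24, a gene on the - strand, runs from 34329219 to 34329518, beyond its deposited end at 34311371. The KIF5C window begins at 148947625, inside a gene deposited from 148875227. Such windows may not be the promoter of the counted transcript. The stretches below run from 100 bases before the RefSeq start, 5′ to 3′ on the strand of the gene, and capitals mark matches of these letters on either strand. They are shown for the called division members, for KIF2C, KIF4A, KIFC1, KIF18B and KIF23, division members picked after the matches were seen to show how the letters are arranged, and for KIF2A and KIF21A, the tested members whose interval lay above 1.
KIF20A: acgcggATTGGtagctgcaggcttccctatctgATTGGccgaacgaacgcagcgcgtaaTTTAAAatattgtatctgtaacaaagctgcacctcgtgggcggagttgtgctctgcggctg
KIF22: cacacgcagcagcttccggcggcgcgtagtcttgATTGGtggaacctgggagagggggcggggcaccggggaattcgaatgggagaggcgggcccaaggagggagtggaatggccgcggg
KIF2C: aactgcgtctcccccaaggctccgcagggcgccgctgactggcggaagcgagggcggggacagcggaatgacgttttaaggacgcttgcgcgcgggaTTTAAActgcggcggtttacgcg
KIF4A: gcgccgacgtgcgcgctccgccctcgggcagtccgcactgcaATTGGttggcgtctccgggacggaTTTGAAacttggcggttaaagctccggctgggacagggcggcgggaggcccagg
KIFC1: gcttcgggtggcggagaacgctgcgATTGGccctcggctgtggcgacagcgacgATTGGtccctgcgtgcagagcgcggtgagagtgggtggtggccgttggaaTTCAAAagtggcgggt
KIF18B: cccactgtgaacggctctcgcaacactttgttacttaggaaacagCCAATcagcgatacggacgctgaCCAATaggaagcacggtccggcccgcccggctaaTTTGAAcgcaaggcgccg
KIF23: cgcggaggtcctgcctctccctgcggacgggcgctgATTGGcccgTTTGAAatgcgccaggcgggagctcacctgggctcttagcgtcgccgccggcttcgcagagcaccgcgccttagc
KIF2A: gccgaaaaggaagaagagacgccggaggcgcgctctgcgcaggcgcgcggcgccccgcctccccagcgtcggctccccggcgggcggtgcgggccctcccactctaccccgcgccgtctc
KIF21A: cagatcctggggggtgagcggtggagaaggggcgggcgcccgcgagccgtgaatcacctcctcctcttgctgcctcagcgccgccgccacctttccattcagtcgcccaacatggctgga

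The stretches lie at chr5:138179012-138179131 (+ strand) for KIF20A, chr16:29790651-29790770 (+ strand) for KIF22 and chr1:44739737-44739856 (+ strand) for KIF2C. Those of KIF4A, KIFC1 and KIF18B lie at chrX:70290004-70290123 (+ strand), chr6:33391723-33391842 (+ strand) and chr17:44947754-44947873 (- strand), in that order. Those of KIF23, KIF2A and KIF21A lie at chr15:69414249-69414368 (+ strand), chr5:62306106-62306225 (+ strand) and chr12:39443101-39443220 (- strand), in that order. In KIF4A, KIFC1, KIF18B and KIF23 the CHR letters follow at least 1 NF-Y box in the same stretch, on either strand. In KIF20A a pair of NF-Y boxes is followed by TTTAAA, and in KIF2C TTTAAA lies at the start. In KIF22 an NF-Y box is the only match of the letters searched. The KIF22 stretch also holds ttcgaa after that box, letters close to TTTGAA that were not searched in any window. KIF2A and KIF21A have none of the letters searched in the stretch.

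TTTGAA was found in 10 of 15 windows of division kinesins (66.7%) and in 1 of 19 windows of the other kinesins (5.26%), that of KIF5B, beside 15.4% of all 27305 RefSeq windows. CCAAT was found in 11 of the 15 (73.3%) and 6 of the 19 (31.6%), beside 35.7% of all windows. Both stood together in 9 of the 15 division windows (60.0%) and 1 of the 19 others, beside 6.08% of all windows. TTTAAA was found in 4 of the 15 and 1 of the 19, beside 12.3% of all windows, and TTTNGCGC in 1 of each, KIF15 and KIF6, beside 1.83%. The 9 tested division members with TTTGAA had log2 folds from −0.55 (KIF14) to −0.27 (KIF18A). Of the 4 without it, KIF20A (−1.33) and KIF22 (−0.60) were lower than all of these, KIF2C (−0.53) lay among them and KIF2A (0.12) was higher. A match is a description of letters and not of binding.

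**Figure D3:**
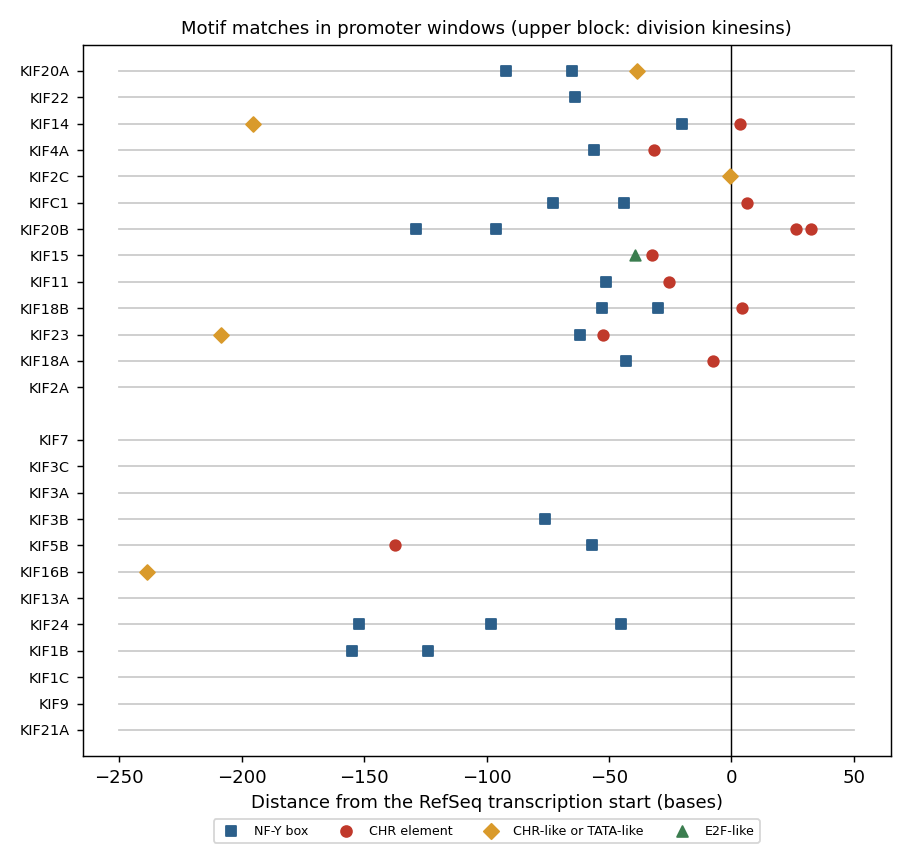
Motif matches along the promoter windows of the 25 tested kinesins with a RefSeq entry, by distance in bases from the transcription start, each row 1 gene, division kinesins in the upper block and each block ordered from the lowest log2 fold down. Circles (CHR letters) and squares (NF-Y box) of the upper block have their centres between −129 and 32.5 bases, and 1 circle, in KIF5B, lies in the lower block.

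The 27 kinesins outside the division lists were closer to the Control level. Of these, 16 were tested, 13 were lower by some amount, beside 49.8% of all genes, and the median log2 fold was −0.19. The interval lay below 1 for 10 of the 16 (62.5%), beside 29.1% of all genes. KIF7 alone was called lower, 1 of 16, beside 10.2% of all genes. Summed, they stood at 458 FPKM in CEL and 517 FPKM in Control, a smaller relative gap than the 651 FPKM in CEL and 967 FPKM in Control of the division kinesins.

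Kinesin-1 is the main motor for cargo towards the cell edge, and KIF5B was its only heavy chain above 1 FPKM. KIF5B was at 115 FPKM in CEL and 141 FPKM in Control, a ratio of 0.819 (0.792 to 0.848). KIF5A and KIF5C, the neuronal heavy chains, had 1 read in each library. Kinesin-2 is built from KIF3A with KIF3B or KIF3C and carries cargo along the cilium. KIF3A was at 12.8 FPKM in CEL and 16.3 FPKM in Control, a ratio of 0.783 (0.691 to 0.887). KIF3B, its usual partner, was at 22.4 FPKM in CEL and 27.6 FPKM in Control, a ratio of 0.813 (0.769 to 0.861). KIF3C, the alternative partner, was at 9.61 FPKM in CEL and 14.5 FPKM in Control, a ratio of 0.665 (0.591 to 0.748). The interval of KIF3C lay below that of KIF3B. KIFAP3, the subunit that joins kinesin-2 to cargo, was at 7.08 FPKM in CEL and 7.75 FPKM in Control, with an interval that holds 1.

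The kinesin-3 motors KIF1B, KIF1C and KIF13A, which carry organelles and endosomes, were the cargo kinesins nearest to equal levels. KIF1C was at 111 FPKM in CEL and 107 FPKM in Control, a ratio of 1.04 (0.994 to 1.08). KIF1B was at 24.1 FPKM in CEL and 26.1 FPKM in Control, a ratio of 0.924 (0.867 to 0.985). KIF13A was at 23.5 FPKM in CEL and 25.5 FPKM in Control, a ratio of 0.920 (0.851 to 0.996). The log2 folds of KIF1B, KIF13A and KIF24 turned positive with the length trend removed, at 0.01, 0.00 and 0.03, and that of KIF1C turned negative with upper quartile scaling, at −0.01. KIF13B, the relative of KIF13A, was lower at 4.40 FPKM in CEL and 6.77 FPKM in Control, a ratio of 0.649 (0.547 to 0.769). KIF16B, a motor of early endosomes, was at 2.10 FPKM in CEL and 2.56 FPKM in Control, with an interval that holds 1 (0.626 to 1.07).

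KIF7 (ENSG00000166813; chromosome 15, 89608789 to 89655467) regulates Hedgehog signalling at the tip of the cilium. It was at 1.75 FPKM (65 reads) in CEL and 3.25 FPKM (104 reads) in Control, a ratio of 0.539 (0.389 to 0.741). Its log2 fold of −0.63 ran from −0.86 to −0.29 over the other settings, the widest span among the called members. KIF24, which restrains cilium growth, was at 4.04 FPKM in CEL and 4.44 FPKM in Control. KIF27, a relative of KIF7, was at 4.67 FPKM in CEL and 5.37 FPKM in Control, and KIF9, a motor known from sperm tails, was at 1.53 FPKM in CEL and 1.40 FPKM in Control. The intervals of KIF24, KIF27 and KIF9 hold 1.

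KIF21A, which limits microtubule growth at the cell cortex, had the highest ratio of the 29 tested kinesins. KIF21A (ENSG00000139116; chromosome 12, 39293228 to 39443390) was at 10.8 FPKM (587 reads) in CEL and 7.46 FPKM (351 reads) in Control, a ratio of 1.44 (1.26 to 1.65). Its relative KIF21B differed the other way at a far lower level, with 0.179 FPKM (18 reads) in CEL and 0.771 FPKM (67 reads) in Control, a ratio of 0.232 (0.129 to 0.394). KIF21B did not reach 1 FPKM and so was not among the tested genes. The minus-end motors KIFC3 and KIFC2 had values in the lower direction. KIFC3 was at 94.7 FPKM in CEL and 107 FPKM in Control, a ratio of 0.888 (0.835 to 0.944). KIFC2 was at 14.5 FPKM in CEL and 19.8 FPKM in Control, a ratio of 0.731 (0.643 to 0.830).

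The 13 members below 1 FPKM reached at most 0.806 FPKM. That value belonged to KIF17, a motor of cilia and dendrites, with 27 reads in CEL and 11 reads in Control, a ratio of 2.12 (1.02 to 4.72). KIF26B had 19 reads in CEL and 11 reads in Control, and KIF25 had 3 reads in CEL and 5 reads in Control. KIF6 had 2 reads in CEL and 0 in Control, and KIF26A had 0 reads in CEL and 1 in Control. KIF1A, KIF12, KIF19 and KIF2B had 0 reads in both libraries. No fold is drawn from the genes with fewer than 10 reads in both libraries.

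Among all genes tested 10.2% were called lower and 8.97% higher, and the counts of the partner lists stand beside these shares. CENPE, a kinesin of the kinetochore that the name rule leaves out, was at 32.7 FPKM in CEL and 58.0 FPKM in Control, a ratio of 0.563 (0.534 to 0.594). Of 10 tested midzone and cytokinesis partners 4 were called lower and 0 higher, and the median log2 fold was −0.53. CIT, the citron kinase, was at 36.0 FPKM in CEL and 73.9 FPKM in Control. PLK1, a mitotic kinase that binds KIF20A, was at 60.2 FPKM in CEL and 115 FPKM in Control. INCENP, the scaffold of the passenger complex that KIF20A carries, was at 41.9 FPKM in CEL and 77.6 FPKM in Control, and ECT2, which activates RhoA at the cleavage site, was the other called partner at 112 FPKM in CEL and 180 FPKM in Control. The passenger complex was uneven. CDCA8, another of its subunits, was lower at 34.2 FPKM in CEL and 47.5 FPKM in Control, a ratio of 0.720 (0.669 to 0.774). AURKB was at 124 FPKM in CEL and 120 FPKM in Control, with an interval that holds 1 (0.965 to 1.11), and BIRC5 was at 173 FPKM in CEL and 158 FPKM in Control, a ratio of 1.10 (1.04 to 1.15).

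Of 13 tested spindle assembly partners 3 were called lower and 0 higher, beside 10.2% and 8.97% of all genes. These were SPAG5, NUMA1 and HMMR, and the median log2 fold of the list was −0.50. AURKA, the fourth by size, was at 157 FPKM in CEL and 233 FPKM in Control. PRC1, the midzone bundler that binds KIF4A, was nearly absent at 0.659 FPKM (12 reads) in CEL and 0.255 FPKM (4 reads) in Control, and NUSAP1 had 11 reads in CEL and 12 reads in Control. These genes share 58.4% (PRC1) and 62.2% (NUSAP1) of their exonic bases with another gene in GENCODE 29, and the part of this in their low counts was not tested.

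The listed regulators of mitotic genes went both ways, with more of them higher. Of the 15 tested, 11 were higher by some amount and 4 lower, beside 49.8% of all genes lower. The interval lay above 1 for 10 and below 1 for 3, beside 29.9% and 29.1% of all genes. FOXM1, an activator of G2 and M phase genes, was at 46.2 FPKM in CEL and 76.1 FPKM in Control, a ratio of 0.607 (0.569 to 0.647). LIN9, a MuvB subunit, was at 16.0 FPKM in CEL and 10.3 FPKM in Control, a ratio of 1.56 (1.37 to 1.77), and was called higher. RBL2, a pocket protein of the repressing DREAM complex, was at 14.0 FPKM in CEL and 21.6 FPKM in Control. RBL1, another pocket protein, was higher at 52.6 FPKM in CEL and 40.7 FPKM in Control, a ratio of 1.29 (1.21 to 1.38). MYBL2 and NFYB, ahead of RBL1 by size, were also higher, with ratios of 1.37 (1.28 to 1.48) for MYBL2 and 1.30 (1.19 to 1.43) for NFYB. E2F1 was at 68.8 FPKM in CEL and 48.8 FPKM in Control. The median log2 fold of the 15 tested regulators was 0.19. By the 1.5-fold rule 2 were called lower (FOXM1 and RBL2) and 1 higher (LIN9), beside 10.2% and 8.97% of all genes. This split was 1 to 1 with the length trend removed and 2 to 0 on the TPM scale and with upper quartile scaling.

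The partners of transport differed less. Of 16 tested kinesin subunits and adaptors 1 was called lower and 0 higher, beside 10.2% and 8.97% of all genes, with a median of −0.11. The lower one was KLC4, a kinesin-1 light chain, at 9.81 FPKM in CEL and 16.0 FPKM in Control. MAPK8IP3, KLC1 and MAPK8IP1 followed within 1.5-fold. Dynein and dynactin, the motor of opposite direction, had a median of −0.10 over 19 tested genes, with NDE1 lower at 8.85 FPKM in CEL and 22.0 FPKM in Control and DCTN6 higher at 15.9 FPKM in CEL and 9.88 FPKM in Control. NDE1 binds dynein and also acts at kinetochores. DCTN6 was not called with upper quartile scaling and with the length trend removed. DCTN5 and DCTN1 came next by size, at 44.7 and 65.0 FPKM in CEL and 32.1 and 89.5 FPKM in Control.

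**Figure D4:**
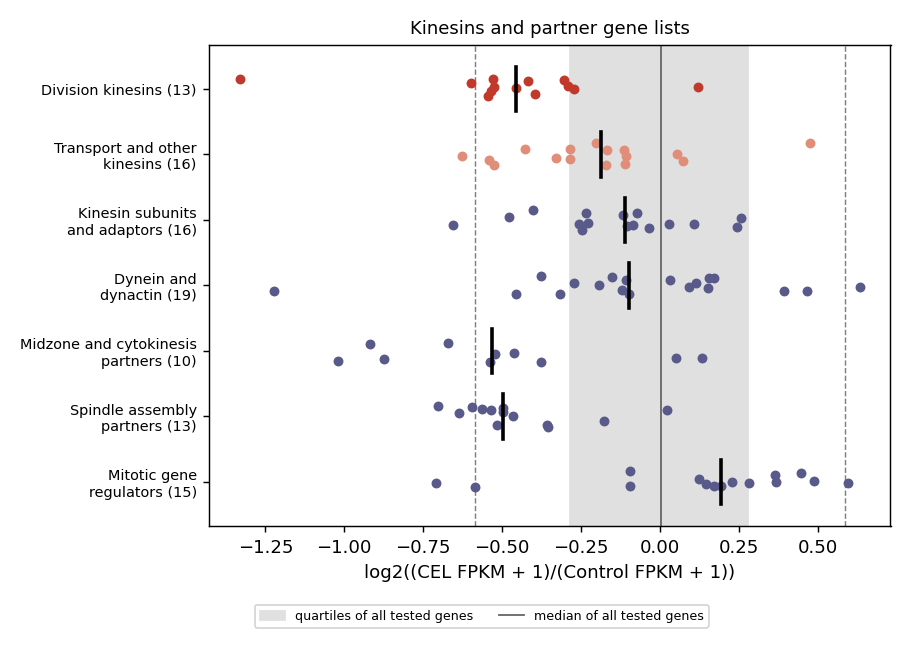
log2 fold of each tested gene in the kinesin groups and partner lists, with black bars at the medians, a grey band for the quartiles of all tested genes and dashed lines at 1.5-fold. The medians of division kinesins, midzone partners and spindle partners lie near −0.5, those of transport kinesins, adaptors and dynein between −0.19 and −0.10, and that of the regulators at 0.19.

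Gene length moved with the log2 fold over all genes. When the protein-coding genes that reached 10 FPKM were cut into 10 equal groups by length, the median log2 fold was 0.33 in the shortest and −0.13 in the longest group. At the lengths of the tested kinesins this trend lay between −0.15 and 0.12, with a median of −0.06. Removed, it left log2 folds of −1.38 for KIF20A, −0.66 for KIF22 and −0.60 for KIF7. KIF14, long by the deposited length, was at −0.39 after removal and KIFC1, short by it, at −0.64, so their order turned round. Among the 29 tested kinesins the rank correlation (Spearman) of length with the log2 fold was 0.19. It was −0.30 over the 8170 protein-coding genes that reached 10 FPKM. The part of length in the kinesin ratios beyond this trend was not tested. Reads of 6 tested members may be uncertain because they share over 10% of exonic bases with a gene on the other strand. These were KIF7 (11.8%), KIFC1 (12.7%), KIF22 (13.0%), KIF27 (13.1%), KIFC2 (17.8%) and KIF9 (17.9%), and the strand setting of the counting is not given in the sources used here. Without these 6 members KIF20A alone was called. Of the called partners, PLK1 (12.5%), KLC4 (12.8%), NDE1 (15.3%), SPAG5 (15.9%), FOXM1 (15.9%), RBL2 (18.2%), NUMA1 (24.9%) and DCTN6 (25.3%) also share over 10% of exonic bases with another gene.

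**Figure D5:**
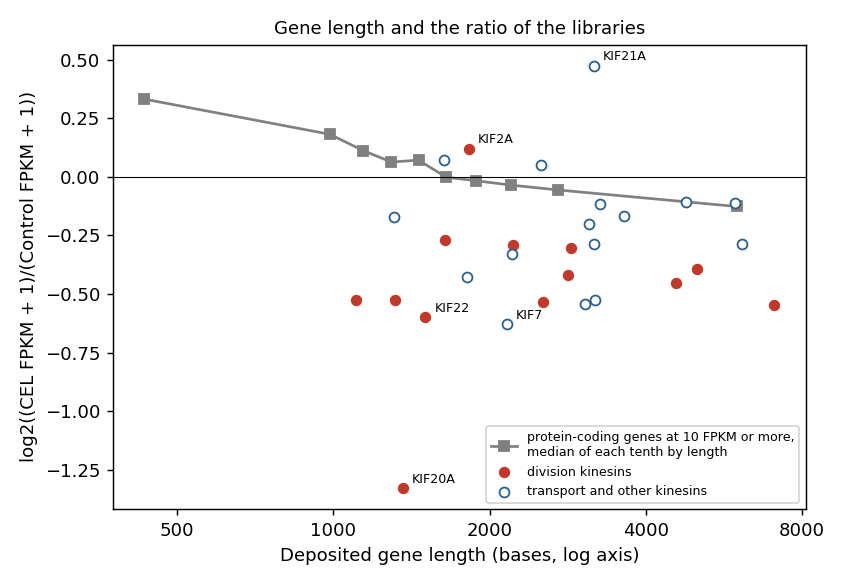
log2 fold of the tested kinesins against the deposited gene length in bases on a log axis, with grey squares for the medians of 10 equal groups of protein-coding genes by length. The grey line runs from 0.33 to −0.13, and all division kinesins except KIF2A lie below it.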

How the data were processed

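Per the labels, total RNA of MDA-MB-231 cells was extracted with TRIzol and made into libraries with a NEBNext Ultra kit, 1 for CEL and 1 for Control. The authors deposited FPKM, which per the submitters' processing notes rest on HTSeq 0.5.4 and GRCh38; for aligner, annotation release and strand setting, nothing is stated in the sources at hand. The deposited gene length was the other value used. Genes without a name (354) were left out; they held 0.265% of the CEL reads and 0.298% of the Control reads.

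Whole reads were recovered from FPKM and length, at a relative tolerance of 1e-06, for 100% of the 24783 detected genes. For 68.7% of them the printed length gave whole reads; for the others a shared length within 1 base was solved, which for 38 genes, none a kinesin, left several pairs. A count of 0 allows up to 3 reads. Intervals are exact conditional binomial intervals. Read recovery, intervals and rule were run on simulated libraries that held counting error only, so that run could not cover variation between cultures. Biotypes and exon overlap came from GENCODE 29, promoters from RefSeq. The filter, fold rule and alternatives (pseudocount, filter, TPM, median and upper quartile scaling, length trend, 2-fold) were run over the whole table. Every tested kinesin is described, and from each partner list the 4 largest absolute log2 folds are named. RACGAP1, AURKB, BIRC5, CDCA8, KIFAP3, PRC1, NUSAP1, RBL1, MYBL2 and NFYB were named after their values were seen. Members and lists were chosen with earlier results of these data known. Scripts ran in Python 3.11.15 with matplotlib 3.10.9, scipy 1.17.1, pandas 2.3.3 and numpy 2.4.6.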

Additional observations from a re-analysis of the deposited data

How the results depend on the processing

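No paired analysis was possible because each group has 1 library. The medians kept their sign under all settings tried: from −0.37 to −0.25 for the kinesin family, −0.52 to −0.31 for division kinesins, −0.24 to −0.12 for the others. KIF20A was called lower under every setting that included it. Members called lower, 3 in the family, were 1 with a pseudocount of 5 FPKM (3.56% of all genes) and at 2-fold (3.24%), 7 on the TPM scale (13.6%), 8 with upper quartile scaling (12.1%) and 5 with the length trend removed (13.4%), where the shares of all genes called lower stand against 10.2% in the setting reported. For division kinesins, 2 were 1 with a pseudocount of 5 FPKM and at 2-fold, 6 with upper quartile scaling and 4 with the length trend removed. For the others, 1 was 2 with a pseudocount of 0.1 FPKM (14.1% of all genes), without a filter (7.12%) and with upper quartile scaling, and 4 on the TPM scale. This count was 0 with a pseudocount of 5 FPKM, at 2-fold and with a filter at 5 FPKM (7.42%). It was also 0 with the length trend removed within 5 bins of expression (11.7%). KIF21A was 1 higher member with the length trend removed. Chosen after seeing the data, leaving out members with over 10% shared exonic bases gave 1 in the family and 1 in the division list, and leaving out KIF20A gave 1 in the division list. Adaptors called lower were 0 with a pseudocount of 5 FPKM and at 2-fold. Dynein genes called lower were 2 with the trend removed within bins, and those called higher were 0 with a pseudocount of 5 FPKM, upper quartile scaling, both forms of trend removal and at 2-fold. Midzone partners called lower were 1 at 2-fold and 6 with upper quartile scaling and both forms of trend removal. Spindle partners called lower were 5 with upper quartile scaling and with the trend removed within bins, and 0 at 2-fold. Regulators called lower were 1 with a pseudocount of 5 FPKM and with the trend removed and 0 at 2-fold, and those called higher were 0 with a pseudocount of 5 FPKM, the TPM scale, upper quartile scaling and at 2-fold. The cause was not tested beyond the construction of each setting. Of 29 tested kinesins, 22 kept a log2 fold below 0 under all settings, 3 kept one above 0 and 4 changed sign. Depth limits the members under 1 FPKM, with 0 to 67 reads.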

Other observations

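Loci named after kinesins but outside the name rule were nearly silent. KIF28P was at 0.143 FPKM in CEL and 0.207 FPKM in Control, the antisense locus KIF9-AS1 was at 0.652 FPKM in CEL and 0.480 FPKM in Control, and KIF1C-AS1 was at 0.399 FPKM in CEL and 0.463 FPKM in Control. KIF4CP, KIF3AP1, KIF18BP1, KIF25-AS1, KIF5C-AS1 and KIF26B-AS1 were listed at 0 in both libraries. STARD9, a giant centrosomal kinesin named by another scheme, was at 4.85 FPKM in CEL and 8.06 FPKM in Control, a ratio of 0.601 with a counting interval of 0.527 to 0.684.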
